A study of Mus musculus with 3 samples.

Results

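RNAseq libraries of cultured adult mouse cardiomyocytes (ACMs) treated with oncostatin M (OSM) or with vehicle were compared gene by gene. They are 2 of the 3 libraries of the series. A gene entered the comparison when the vehicle and OSM libraries together held at least 10 counts, which was so for 15537 of the 56748 genes in the deposited table, 12706 of them protein-coding. ACMs were isolated from hearts of wild-type (WT) mice aged 8 to 10 weeks, and the study used mice of both sexes. The cells were plated on laminin for 3 to 4 h and then kept in serum-free M199 medium with 0.1% BSA and 10 mM 2,3-butanedione monoxime, an inhibitor of contraction. The vehicle group received 0.1% BSA alone and the OSM group 10 ng/mL mouse OSM, in both cases for 16 h. The remaining library, from ACMs given 10 ng/mL human IL-6 for 16 h, is used only for side by side values. RNA samples were pooled before library preparation, so each condition has 1 library, no value has a replicate error, and a difference describes these pools. The counts summed to 24939980 with vehicle, 30773001 with OSM and 26362446 with IL-6.

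OSM is a cytokine of the IL-6 family that macrophages, neutrophils and T cells release at sites of injury. In the mouse it binds the OSM receptor (Osmr), which pairs with the shared subunit gp130 (Il6st) and activates Janus kinases, the transcription factor STAT3 and the ERK branch of MAP kinase signaling, while Socs3 acts as the feedback inhibitor. In cardiomyocytes OSM is known for a remodeling of the cell in which sarcomeres are reduced and genes of the fetal heart and of the nonmuscle cytoskeleton are expressed again.

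Among protein-coding genes above 1 FPKM in both libraries, thrombomodulin (Thbd), an endothelial anticoagulant receptor, stood highest, at 1.54 FPKM with vehicle and 85.0 with OSM. Its 55.1-fold difference corresponds to a log2 ratio of 5.78 (95% counting interval 5.55 to 6.03). Socs3 was at 9.16 FPKM with vehicle and 211 with OSM (log2 4.52, 4.41 to 4.63), and the metalloproteinase inhibitor Timp1 was at 9.04 FPKM with vehicle and 254 with OSM (log2 4.81, 4.61 to 5.02). On the lower side, the muscarinic acetylcholine receptor Chrm2 was at 11.9 FPKM with vehicle and 2.30 with OSM (log2 -2.38, -2.53 to -2.22), and the ventricular gap junction protein Gja1 (connexin 43) was at 37.5 FPKM with vehicle and 8.64 with OSM (log2 -2.12, -2.18 to -2.06). FPKM, the authors' unit, is fragments scaled to gene length in kilobases and to library size. The log2 ratio compares counts scaled with the trimmed mean of M-values (TMM), OSM over vehicle.

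A gene was called, and is described as higher, lower, rising or falling, when its whole 95% Clopper-Pearson interval lay beyond 2-fold. These intervals cover counting error only. By this rule 581 of the 15537 genes (3.74%) were higher with OSM and 844 (5.43%) were lower. The median log2 ratio over all compared genes was 0.00. In pooled cultures, fewer cells of a type and less RNA per cell cannot be told apart. Values of overlapping and antisense genes are uncertain, since whether the counting used the strand is not stated.

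**Figure D1:**
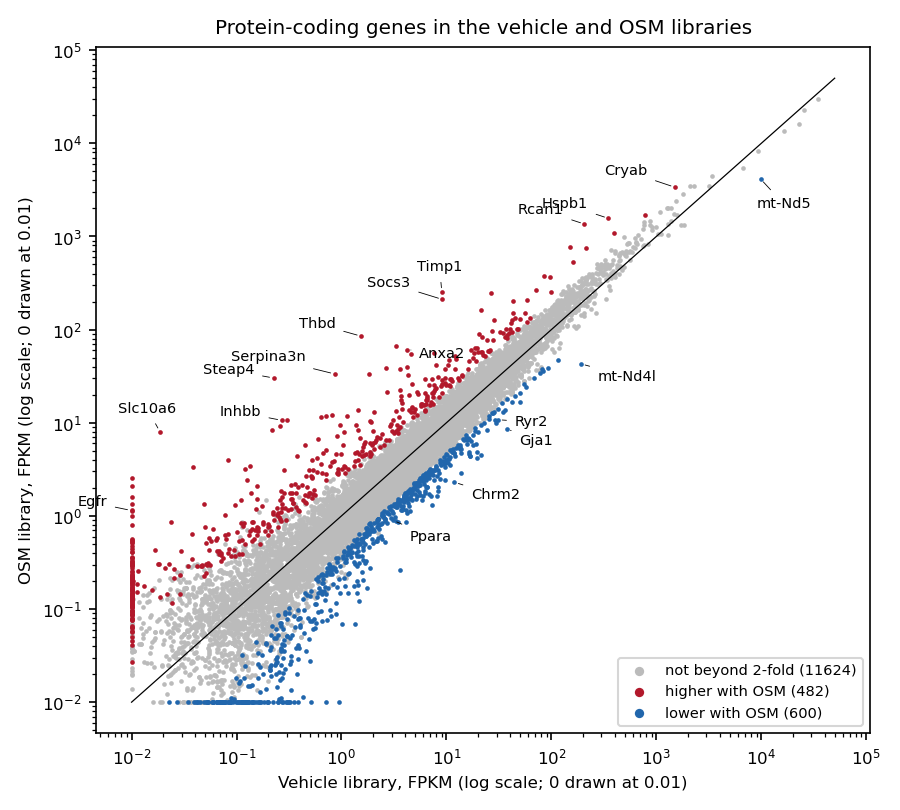
FPKM of compared protein-coding genes in the vehicle library (x axis) and the OSM library (y axis), both on log scales, with values of 0 drawn at 0.01 and the line of equal FPKM in black. Red points are the 482 protein-coding genes higher with OSM and blue points the 600 lower; Thbd, Timp1 and Socs3 lie far above the line at middle levels, and mt-Nd5 lies below it near the top.

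The log2 ratio fell with the length of the gene. Length is the value listed per gene in the deposited table, by which FPKM is scaled, and not the span of the gene on the chromosome. In the shortest eighth of 9444 well-counted protein-coding genes (mean of at least 100 counts), between 243 and 2122 bases, the median was 0.47, and in the longest eighth, from 9608 bases up, it was -0.56. The difference was 1.03 on the log2 scale, and the rank correlation with length across these genes, which are not independent replicates, was -0.52. Genes lower with OSM made up 0.34% of the shortest eighth and 16.1% of the longest, and genes higher with OSM 5.67% and 1.10%. For IL-6 over the same vehicle library the medians of the shortest and longest eighths were 0.02 and -0.03. The mean gene length weighted by counts was 4880 bases with vehicle, 4319 with OSM and 4915 with IL-6. What part RNA length, RNA integrity and the treatment each have in this trend was not tested.

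**Figure D2:**
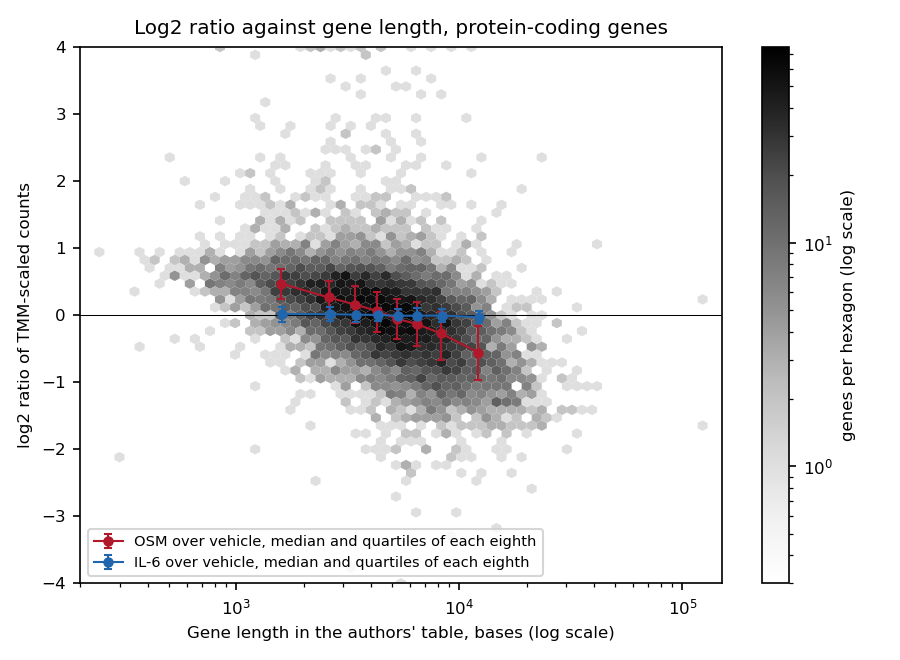
Log2 ratio of TMM-scaled counts (y axis, values beyond 4 drawn at the edge) against gene length in bases (x axis, log scale) for well-counted protein-coding genes, with OSM over vehicle as grey hexagons shaded by the number of genes. Points with bars are medians and quartiles of eighths of length: OSM over vehicle (red) runs from 0.47 down to -0.56, and IL-6 over vehicle (blue) stays between 0.02 and -0.03.

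A smooth trend on log10 gene length was therefore fitted and subtracted, and ratios with the length trend removed are given where they bear on a call. The fitted trend was 0.55 at 1000 bases, 0.08 at 4000 bases and -0.75 at 16000 bases, and it took 21.1% of the variance of the log2 ratio among the 9444 genes. With the trend removed, 513 genes (3.3%) were higher with OSM and 726 (4.67%) lower. Between the 2 ways, 424 were higher and 557 lower both ways, 157 higher and 287 lower calls were lost, and 89 higher and 169 lower calls were gained. No gene was called in opposite directions by the 2 ways (0 genes). Counts of called members in the lists below stand against these shares of all compared genes, 3.74% higher and 5.43% lower, or 3.3% and 4.67% with the trend removed. The lists hold protein-coding genes only. Over all compared protein-coding genes the shares were 3.79% higher and 4.72% lower, or 3.69% and 3.02% with the trend removed.

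Of the genes higher with OSM, 482 of 581 (83.0%) were protein-coding, against 81.8% of all compared genes, with a median length of 3387 bases against 4525.5 for all compared protein-coding genes. Among the genes lower with OSM, 600 of 844 (71.1%) were protein-coding, at a median length of 8124 bases and a median of 14 exons, against 9 exons overall. Long noncoding RNAs (lncRNAs) made up 163 of the lower genes (19.3%) and 60 of the higher genes (10.3%), against 9.44% of all compared genes. With the trend removed, 469 of 513 higher genes (91.4%) and 384 of 726 lower genes (52.9%) were protein-coding. The trend was fitted over protein-coding genes but subtracted from noncoding genes as well, and whether it holds for them was not tested. A trend fitted over all compared genes with counts in both libraries gave 560 higher and 627 lower. The median length of these higher protein-coding genes was 4520 bases and that of lower ones 4346.5 bases, and lncRNAs made up 27.3% of the lower genes. The GC content of the exons still moved with the ratio after removal, with medians from -0.13 in the eighth of genes lowest in GC to 0.15 in the highest.

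For the receptors of the family, the ligand-specific chain Osmr rose with OSM, from 3.34 to 8.10 FPKM (log2 1.28, 1.17 to 1.38), and stood at 1.82 with the trend removed. It was the only member called higher among the 6 compared of 9 gp130 family receptors, where no member was lower. The shared chain Il6st was the most abundant, at 61.8 FPKM with vehicle and 41.8 with OSM (log2 -0.56, and -0.09 with the trend removed). The leukemia inhibitory factor receptor Lifr, through which mouse OSM signals little, was at 3.17 FPKM with vehicle and 2.27 with OSM (log2 -0.49). The IL-6 receptor Il6ra was near the detection limit, with 24 counts with vehicle and 14 with OSM. The list's median was -0.53, and -0.06 with the trend removed. The ciliary neurotrophic factor receptor Cntfr, with 14 and 2 counts, was called lower only with the trend removed (ratio -3.05, -6.23 to -0.93 before removal, and -3.27, -6.45 to -1.14 after).

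None of the 10 compared Janus kinases and STATs was called (0 higher, 0 lower; median 0.13). Stat3, the main transcription factor of the pathway, was the most abundant, at 33.0 FPKM with vehicle and 50.6 with OSM (log2 0.62, 0.58 to 0.66). With the trend removed its ratio was 0.98 (0.94 to 1.02), an interval that includes 2-fold. Stat5a, a factor of growth hormone and cytokine receptors, had a log2 ratio of 0.73, while the kinases Jak1 and Jak2 had ratios of -0.39 and -0.05. Among the inhibitors, 2 of 15 compared members of the SOCS, PIAS and phosphatase list were higher, Socs3 and Cish. Cish, a STAT5-induced member of the SOCS family, rose from 0.930 to 3.22 FPKM (log2 1.79). The cytokine inhibitor Socs1 had 4 counts with vehicle and 25 with OSM (log2 2.40, 0.87 to 4.39), an interval that includes 2-fold. Ptpn11, the phosphatase SHP2 that links gp130 to ERK signaling, was the most abundant of this list with vehicle, at 60.3 FPKM with vehicle and 39.2 with OSM (log2 -0.62).

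Transcription factors of the early response are induced within minutes to hours by many receptors. Of 21 compared AP-1 and immediate early genes, 8 were higher (38.1%, against 3.74% of all genes) and 0 lower, with a median of 0.93, and 7 remained called with the trend removed at a median of 0.78. The AP-1 subunit Junb rose from 42.3 to 127 FPKM (log2 1.58), Fosl1 from 1.42 to 4.79 FPKM (log2 1.75) and Fosb from 0.215 to 0.686 FPKM (log2 1.67). Ier2 and Ier3, immediate early genes outside the AP-1 family, rose to 37.7 and 266 FPKM (log2 1.97 and 1.90). Egr1 and Fos were also higher (log2 1.42 and 1.48), as was Ier5 (log2 1.19), whose call was lost with the trend removed (1.03, 0.91 to 1.15). The most abundant member with vehicle, the stress factor Atf3, was at 139 FPKM with vehicle and 229 with OSM (log2 0.72), and Jun itself had a log2 ratio of 0.38.

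Of 6 compared C/EBP factors, 2 were higher. Cebpd, an acute phase transcription factor, rose from 0.644 to 11.5 FPKM (log2 4.16, 3.79 to 4.55), while Cebpb rose from 34.4 to 91.0 FPKM (log2 1.40) and lost its call with the trend removed (0.96). In the NF-kB list, 2 of 15 members were higher, the atypical IkB proteins Bcl3 (from 1.88 to 10.4 FPKM, log2 2.46) and Nfkbiz (from 0.347 to 1.37 FPKM, log2 1.98), both of which act in the nucleus. The classical inhibitor Nfkbia had a log2 ratio of 0.52. Of 16 ERK feedback genes of the DUSP, Sprouty and Spred families, 3 were higher and 0 lower. Spred3, an inhibitor of the Ras to ERK step, rose from 0.127 to 2.46 FPKM (log2 4.27), and the ERK phosphatases Dusp6 and Dusp5 rose from 3.60 to 22.7 FPKM (log2 2.66) and from 3.79 to 16.4 FPKM (log2 2.12). Spred1 was called only with the trend removed (1.18). The kinase Pim3 was the only called member of 10 in the Pim and Myc list, from 21.7 to 83.3 FPKM (log2 1.94), and Myc was at 30.2 FPKM with vehicle and 44.4 with OSM (log2 0.55).

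Promoters of all compared genes in GENCODE M39 were searched for the palindrome TTCNNNGAA, the letters common to STAT binding sites, in the 250 bases before and 50 bases after each gene start. It was present in 40 of 576 promoters of genes higher with OSM (6.94%, 95% interval 5.01% to 9.34%), in 64 of 827 of genes lower (7.74%) and in 1142 of 15455 of all compared genes (7.39%). These shares are near each other. The AP-1 letters TGANTCA, which read the same on both strands and were searched for after the ratios had been seen, were in 49 of 576 promoters of higher genes (8.51%, 6.36% to 11.1%), 54 of 827 of lower genes (6.53%) and 876 of 15455 overall (5.67%). A narrower form of the STAT letters, TTCCNGGAA, also chosen after the ratios had been seen, was in 9 of 576 higher (1.56%), 7 of 827 lower (0.846%) and 194 of 15455 overall (1.26%). A match is a description of the letters and not a binding site.

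Stretches around these letters are shown for some of the called genes, chosen after their values were seen, to let the matched letters be compared, each from GRCm39 on the strand of the gene, 5′ to 3′, with the matched letters in capitals. Of 97 named higher genes with a promoter, at least 6 hold TTCNNNGAA and at least 9 hold TGANTCA in the 250 bases before the start. The shares given above are for a window that also takes in bases after the start, so these counts have no background share. Socs3, Pde4b, Ccl2 and Fgf23 show the STAT letters, and Anxa2, Sprr1a (at 2 places), Rcan1 and Il6 the AP-1 letters:
Socs3, chr11:117860328-117860356, minus strand: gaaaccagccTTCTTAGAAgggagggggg
Pde4b, chr4:102427097-102427125, plus strand: ctttgagaatTTCCCAGAAagcaataaat
Ccl2, chr11:81926236-81926264, plus strand: tctcttccacTTCCTGGAAacacccgagg
Fgf23, chr6:127049754-127049782, plus strand: tctgggctttTTCTTTGAAtggatgatta
Anxa2, chr9:69360860-69360886, plus strand: ccaagttggaTGAGTCAcccagcaggg
Sprr1a, chr3:92393318-92393344, minus strand: taactaaagcTGAGTCAgagggtgaac
Sprr1a, chr3:92393288-92393314, minus strand: gggaggagggTGAGTCAtaggtgactg
Rcan1, chr16:92197060-92197086, minus strand: atgcgggaccTGACTCAggaatttgct
Il6, chr5:30217862-30217879, plus strand: cTGAGTCActtttaaaga

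In Socs3 the matched letters lie 215 to 223 bases before the start, in Pde4b 177 to 185 and in Anxa2 26 to 32. The Sprr1a copies lie 120 to 126 and 90 to 96 bases before its start, and in Rcan1 the match lies 105 to 111 bases before. Among the 10 protein-coding genes with at least 1 FPKM in both libraries whose interval lay farthest above 2-fold after removal of the trend, Socs3 and Pde4b were the only ones with TTCNNNGAA in the 250 bases, and Anxa2 and Sprr1a held TGANTCA.

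Those 10 genes were Thbd, Socs3, Timp1, Serpinb1a, Anxa2, Bcr, Sprr1a, Angptl4, Pde4b and Litaf. Serpinb1a, an inhibitor of neutrophil proteases, rose from 1.82 to 33.3 FPKM (log2 4.19), and Sprr1a, a small proline-rich protein known from gp130-stimulated cardiomyocytes, from 3.34 to 67.4 FPKM (log2 4.34). Bcr, a GTPase regulator, rose from 4.20 to 39.7 FPKM (log2 3.24, and 3.52 with the trend removed) at a listed length of 8191 bases. Pde4b, a phosphodiesterase that degrades cyclic AMP, rose from 4.27 to 32.3 FPKM (log2 2.92), also against the trend for its 10560 bases. Litaf, an endosomal and lysosomal membrane protein, rose from 1.13 to 11.9 FPKM (log2 3.40). With IL-6, measured against the same vehicle library, Socs3 was at 8.25 FPKM, Thbd at 1.64, Timp1 at 7.40 and Pde4b at 4.04.

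**Figure D3:**
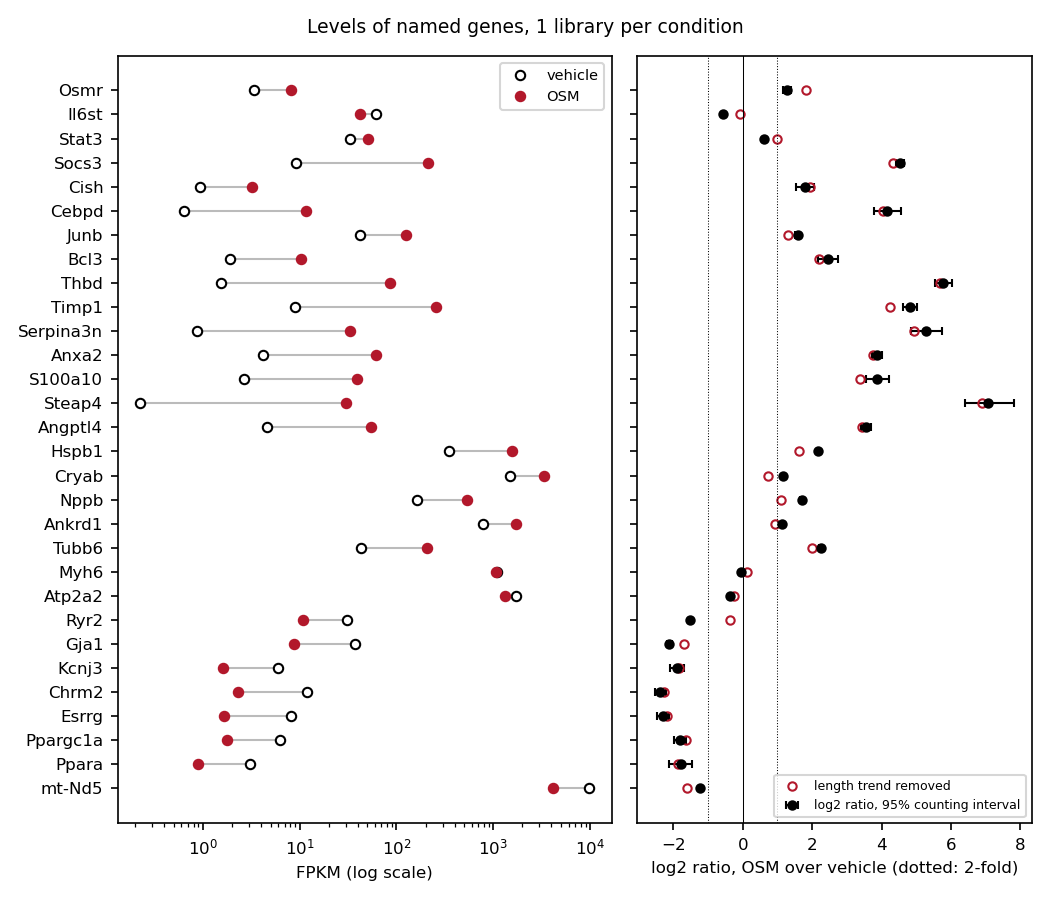
Left, FPKM (log scale) of 30 named genes with vehicle (open circles) and OSM (filled circles), 1 library each. Right, their log2 ratios with 95% counting intervals (black) and with the length trend removed (open red circles), with dotted lines at 2-fold; Steap4 (7.06) and Thbd (5.78) lie farthest to the right, and Ryr2 moves from -1.53 to -0.37 with the trend removed.

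Of secreted and surface proteins in blood clotting, 2 of 13 compared members were higher and 0 lower. Besides Thbd, the protein C receptor Procr, which presents protein C to thrombomodulin, rose from 1.65 to 5.85 FPKM (log2 1.82). Tissue factor (F3), the starter of clotting, had a log2 ratio of -0.20. Among 19 compared serpins, 2 were higher and 2 lower. Serpina3n, an acute phase protease inhibitor, rose from 0.862 to 33.4 FPKM (log2 5.27), whereas Serpina3c fell from 1.61 to 0.333 FPKM (log2 -2.27) and Serpinb8 fell to 4 from 40 counts. The list's median was 0.03 and turned negative with scaling by total counts.

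Metalloproteinases and their inhibitors had 4 of 16 compared members higher and 0 lower (median 0.36, and 0.51 with the trend removed). Beside Timp1, these were 3 ADAMTS proteases that act on matrix proteoglycans. Adamts4 rose from 6 to 193 counts (log2 4.77), Adamts9 from 0.168 to 0.498 FPKM (log2 1.57) and Adamts1 from 1.86 to 4.38 FPKM (log2 1.23), the last not called with total counts. Timp2 had a log2 ratio of -0.65 and Timp3 of 0.57. The membrane protease Mmp14 was called only with the trend removed (1.73).

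Of 35 cytokines and chemokines, 22 were compared, and 5 of these were higher and 0 lower. All 5 were at low levels. The monocyte attractant Ccl7 went from 0 to 38 counts, a rise of at least 10.7-fold when 3 counts are taken as the floor of a library, and its neighbor Ccl2 had 14 and 60 (log2 1.86). The call of Ccl2 was lost with the trend removed (1.34), with DESeq2 factors and with total counts. Il6 itself rose from 4 to 42 counts (log2 3.15, 1.69 to 5.09), the alarmin Il33 from 6 to 55, and Lta from 0 to 18, at least 5.07-fold against the floor. The most abundant member, Mif, was at 148 FPKM with vehicle and 200.3 with OSM (log2 0.44, and -0.18 with the trend removed). The list's median changed sign with the trend removed, from 0.15 to -0.01.

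Among receptors for other cytokines, 4 of 19 compared members of the IL-1, IL-4, interferon and TNF receptor list were higher and 0 lower, at a median of 0.37. Il17ra rose from 1.52 to 6.81 FPKM (log2 2.17), Il4ra from 0.810 to 3.78 FPKM (log2 2.22) and Il1r1 from 0.255 to 0.968 FPKM (log2 1.92). Csf2rb, the shared chain of the IL-3, IL-5 and GM-CSF receptors, went from 0 to 19 counts, a rise of at least 5.36-fold. Tnfrsf12a, the receptor of TWEAK, was the most abundant, at 122 FPKM with vehicle and 240.1 with OSM (log2 0.97, 0.93 to 1.02), an interval that includes 2-fold. The TNF receptor Tnfrsf1a was at 41.9 FPKM with vehicle and 85.3 with OSM (log2 1.02, 0.96 to 1.09).

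Only 9 of 30 complement and acute phase genes had enough counts, and 3 of them were higher. Lcn2, an iron-siderophore-binding acute phase protein, rose from 1.43 to 8.31 FPKM (log2 2.54), and Lrg1 from 4.38 to 19.7 FPKM (log2 2.17). The lipopolysaccharide-binding protein Lbp went from 0 to 16 counts, at least 4.51-fold higher. Their median of 0.98 became -0.09 among members with at least 50 counts. C3, the central complement protein, was at 0.984 FPKM with vehicle and 0.853 with OSM (log2 -0.21).

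Interferon-stimulated genes showed no common direction, with 1 of 22 compared members higher and 2 lower, at a median of -0.07, and 0 higher and 3 lower with the trend removed. Ifit1 fell from 1.40 to 0.202 FPKM (log2 -2.80) and Ifit2 from 1.16 to 0.239 FPKM (log2 -2.28), both antiviral RNA-binding proteins. Ifitm3, a membrane protein that blocks viral entry, rose from 60 to 232 counts (log2 1.71), with 1.06 and no call after removal of the trend. None of 13 genes of MHC class I presentation was called (0 higher, 0 lower). B2m, the light chain of class I molecules, was at 76.3 FPKM with vehicle and 96.2 with OSM (log2 0.33, and -0.26 with the trend removed).

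Growth factor systems held some of the largest ratios, mostly from near-absent transcripts. Egfr went from 2 to 386 counts, a log2 ratio of 7.35 with a wide interval of 5.49 to 10.40. Its ligand Hbegf rose from 7.27 to 29.4 FPKM (log2 2.01), and the neuregulin receptor Erbb4 fell from 0.566 to 0.114 FPKM (log2 -2.32), so that 2 of 12 compared members were higher and 1 lower. Neuregulin (Nrg1) had 0 and 10 counts and was called only with the trend removed.

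In TGF-beta and BMP signaling 4 of 32 compared members were higher and 0 lower, 3 of them ligands. Inhbb, the activin beta-B chain, rose from 0.269 to 10.6 FPKM (log2 5.30), Bmp2 from 7 to 67 counts (log2 3.02), and Bmp4 from 0 to 21 counts, at least 5.92-fold. The BMP antagonist Nog rose from 1.98 to 6.06 FPKM (log2 1.61), and lost its call with the trend removed (1.21). Gdf15, a stress cytokine, was the most abundant, at 325 FPKM with vehicle and 457 with OSM (log2 0.49), and Tgfb1 had a log2 ratio of 0.87.

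The FGF, insulin and IGF list had 3 of 29 compared members higher and 3 lower, and 4 higher and 3 lower with the trend removed. Fgf23, a phosphate-regulating hormone normally made in bone, went from 0 to 114 counts, a rise of at least 32.1-fold. The IGF-binding proteins diverged: Igfbp7 rose from 1.05 to 7.95 FPKM (log2 2.92) and Igfbp3 from 5 to 51 counts, while Igfbp5 fell from 16.4 to 4.63 FPKM (log2 -1.83). Fgf7 fell from 32 to 4 counts. The insulin receptor Insr fell from 11.7 to 4.76 FPKM (log2 -1.30), a call lost with the trend removed (-0.66).

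Components of the nonmuscle cytoskeleton were higher in 12 of 32 cases (37.5%, against 3.74% of all genes) and lower in 0, with a median of 0.79. With the trend removed 6 were called (18.75%, against 3.3% of all genes) and the median was 0.60. The beta-tubulin Tubb6 rose from 42.8 to 205 FPKM (log2 2.26), and the alpha-tubulins Tuba1c and Tuba1a rose to 97.1 and 25.4 FPKM (log2 1.83 and 1.75). Arpc1b, a subunit of the Arp2/3 complex that nucleates branched actin, rose from 0.533 to 3.10 FPKM (log2 2.54). The actin-sequestering peptide Tmsb4x rose from 4.38 to 13.7 FPKM (log2 1.64), and cytoplasmic beta-actin (Actb) from 25.5 to 58.8 FPKM (log2 1.20), and after removal of the trend neither was called (1.18, 0.92 to 1.45, and 0.98, 0.90 to 1.06). Tpm3 and Myh9, a tropomyosin and a nonmuscle myosin, kept their calls (log2 1.63 and 1.17).

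Annexins and S100 proteins, calcium-binding proteins of membranes, had 4 of 17 compared members higher and 0 lower. Anxa2 and its partner S100a10, which form a tetramer at the plasma membrane, rose from 4.19 to 61.1 FPKM (log2 3.87) and from 82 to 1412 counts (log2 3.86). S100a11 rose from 7.89 to 41.3 FPKM (log2 2.39) and Anxa7 from 42.3 to 93.4 FPKM (log2 1.14). The list's median of 0.64 became 0.04 with the trend removed. S100a1, the cardiac member and the most abundant, was at 530.3 FPKM with vehicle and 828 with OSM (log2 0.64, and 0.00 with the trend removed).

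Among intermediate filaments and lamins, 2 of 11 compared members were higher and 2 lower. Nestin (Nes) rose from 10.5 to 47.3 FPKM (log2 2.17), and Lmnb2 rose from 2.32 to 5.53 FPKM (log2 1.25). Lmnb2 was not called with the trend removed (1.20, 0.99 to 1.42) or with total counts (1.19). The keratins Krt18 and Krt19, filaments of epithelia, fell from 32 to 5 and from 18 to 0 counts. Desmin (Des), the muscle filament, was at 863 FPKM with vehicle and 1341 with OSM (log2 0.63). Of 36 compared integrins and focal adhesion genes, 2 were higher and 0 lower at a median of 0.08, and 4 were higher with the trend removed at 0.28. Itga7, the laminin receptor of muscle, rose from 55.6 to 149 FPKM (log2 1.43), and the integrin activator Fermt3 rose from 8 to 74 counts.

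Collagens and other matrix genes were mostly near the detection limit, with 3 of 52 compared members higher and 6 lower, and a median that changed sign with the trend removed, from -0.05 to 0.17, where 4 were higher and 1 lower. Thrombospondin 4 (Thbs4) rose from 1.37 to 9.46 FPKM (log2 2.79), and elastin (Eln) went from 0 to 12 counts, at least 3.38-fold higher. The hyaluronan synthase Has1 went from 0 to 20 counts, at least 5.64-fold higher, and Col6a1 had 18 with vehicle and 0 with OSM. Of the 6 lower calls, 1 was kept after removal of the trend, that of Col6a1. The basement membrane protein Nid2 went from -2.44 to -2.39 with an interval of -4.14 to -0.97, and the laminin chain Lama2 from -1.28 to -0.51. The basement membrane collagens Col4a1 and Col4a2 had log2 ratios of 0.54 and 0.45, and the laminin chain Lamb2 of -0.44.

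Sarcomere and Z-disc genes held 5.09% of all counts with vehicle and 5.79% with OSM. None of 33 was higher (0) and 3 were lower, and the median went from -0.10 to 0.02 with the trend removed, a change of sign. The 3 were the very long genes Ttn, Nebl and Xirp2. Titin (Ttn), the elastic filament of the sarcomere, fell from 6.37 to 2.05 FPKM (log2 -1.64), but its ratio reversed to 0.37 with the trend removed, where the fit at its 117334 bases rests on few genes. Nebulette (Nebl) fell from 16.7 to 4.41 FPKM (log2 -1.92) and kept its call at -1.21, while that of Xirp2 (-1.12) was lost at -0.45.

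The ventricular light chains Myl2 and Myl3 were at 2288 FPKM with vehicle and 3518 with OSM and at 2088 FPKM with vehicle and 3453 with OSM (log2 0.62 and 0.72, and 0.27 and 0.39 with the trend removed). Troponin I (Tnni3) was at 1258 FPKM with vehicle and 2019.9 with OSM (log2 0.68). The adult heavy chain Myh6 was nearly level, at 1100.3 FPKM with vehicle and 1071 with OSM (log2 -0.04), and the fetal Myh7 had a ratio of 0.39 at a far lower level of 3.07 FPKM with OSM. Cardiac actin (Actc1), the most abundant of the list with vehicle, was at 3184 FPKM with vehicle and 3517 with OSM (log2 0.14), and its ratio turned to -0.28 with the trend removed.

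Of 15 compared fetal and stress genes, 5 were higher (33.3%, against 3.74% of all genes) and 1 lower, with a median of 0.81. With the trend removed 4 were higher (26.7%, against 3.3% of all genes) at a median of 0.79. Runx1, a transcription factor of dedifferentiated cardiomyocytes, rose from 0.424 to 2.16 FPKM (log2 2.35), and the endocytic adaptor Dab2 from 0.113 to 0.392 FPKM (log2 1.79). Nestin, also counted here, rose as given above. B-type natriuretic peptide (Nppb) rose from 162 to 532 FPKM (log2 1.72), while atrial natriuretic peptide (Nppa) was at 24.2 FPKM with vehicle and 38.5 with OSM (log2 0.67). Ankrd1, a stretch-responsive nuclear cofactor and the most abundant here, rose from 778 to 1717 FPKM (log2 1.14), with 0.94 after removal of the trend and no call. The receptor tyrosine kinase Kit fell from 0.302 to 0.0789 FPKM (log2 -1.94), a call also lost (-1.61, -2.39 to -0.88). Skeletal and smooth muscle actins Acta1 and Acta2 had ratios of 0.53 and 0.22.

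Calcium-cycling genes were lower in 4 of 25 cases (16.0%, against 5.43% of all genes) and higher in 0, at a median of -0.37, but no call stood with the trend removed (0 genes, median -0.05). The ryanodine receptor Ryr2, the calcium release channel, fell from 31.0 to 10.8 FPKM (log2 -1.53, and -0.37 with the trend removed). Subunits of the L-type calcium channel gave the other 3 calls, Cacnb2 (-1.39), Cacna1c (-1.14) and Cacna2d1 (-1.08), which stood at -0.78, -0.17 and -0.52 after removal. The calcium pump Atp2a2 was at 1705 FPKM with vehicle and 1319 with OSM (log2 -0.37), and its inhibitor Pln had a ratio of -0.08.

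Among 30 ion channels and pumps, 5 were lower and 1 higher. The potassium channel subunits Kcnj3 and Kcnj5, which together form the acetylcholine-gated channel of the heart, fell from 6.03 to 1.62 FPKM (log2 -1.90) and from 17.8 to 5.80 FPKM (log2 -1.62), and these 2 lower calls were kept with the trend removed. The channel regulator Kcne1 rose from 0.307 to 1.15 FPKM (log2 1.90). Trpm7, Clcn3 and Abcc9, the sulfonylurea receptor of the cardiac ATP-sensitive channel, were lower (log2 -1.56, -1.27 and -1.31) and lost their calls with the trend removed (-1.07, -0.47 and -1.02).

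Receptors for hormones and transmitters had 2 of 17 members lower and 1 higher. Chrm2, which acts through the same acetylcholine-gated channel, kept its call with the trend removed (-2.26), and the mineralocorticoid receptor Nr3c2 fell from 1.93 to 0.714 FPKM (log2 -1.44) without keeping it (-1.29 with the trend removed). The natriuretic peptide receptor Npr1 rose from 9 to 50 counts (log2 2.23). The beta-1 adrenergic receptor Adrb1 had a log2 ratio of 0.41, and the most abundant member, the growth hormone receptor Ghr, of -0.54.

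At the intercalated disc, which joins cardiomyocytes end to end, 5 of 19 members were lower (26.3%, against 5.43% of all genes) and 0 higher. The median of -0.69 was the lowest of the 53 lists before removal of the trend. With the trend removed the median was -0.47 and Gja1 alone was called (-1.70). This was 5.26% of the members, against 4.67% of all genes and 3.02% of protein-coding genes. The lowest median was then that of the mitochondrially encoded genes (-0.91). Desmoplakin (Dsp) and desmoglein 2 (Dsg2), desmosomal proteins, fell from 67.6 to 29.9 FPKM (log2 -1.18) and from 6.71 to 2.68 FPKM (log2 -1.33), with -0.81 and -1.04 after removal of the trend. Ctnna3 and the anchor protein Ank2 were also lower (log2 -1.29 and -1.36), with ratios of -1.08 and -0.07 after removal of the trend. Plakoglobin (Jup) was at 27.4 FPKM with vehicle and 48.4 with OSM (log2 0.82), against the direction of the list.

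Cardiac transcription factors and cofactors were lower in 6 of 23 cases (26.1%, against 5.43% of all genes) and higher in 0 (median -0.27). The 3 that kept their calls with the trend removed were Esrrg, Ppargc1a and Ppara. All 3 have roles in energy metabolism, but this grouping was not tested. The fatty acid oxidation and tricarboxylic acid cycle lists had 0 called members with the trend removed. Esrrg, an estrogen-related receptor that drives oxidative genes, fell from 8.14 to 1.65 FPKM (log2 -2.30), its coactivator Ppargc1a (PGC-1 alpha) from 6.21 to 1.78 FPKM (log2 -1.80), and the fatty acid sensor Ppara from 3.09 to 0.899 FPKM (log2 -1.78). Mef2c, Tbx20 and Zfpm2, factors of heart development, were lower with ratios of -1.31, -1.23 and -1.46 and lost their calls with the trend removed (-0.57, -0.69 and -1.10). Gata4 had a ratio of -0.69 and Nkx2-5, the most abundant, of 0.31 (-0.09 with the trend removed).

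**Figure D4:**
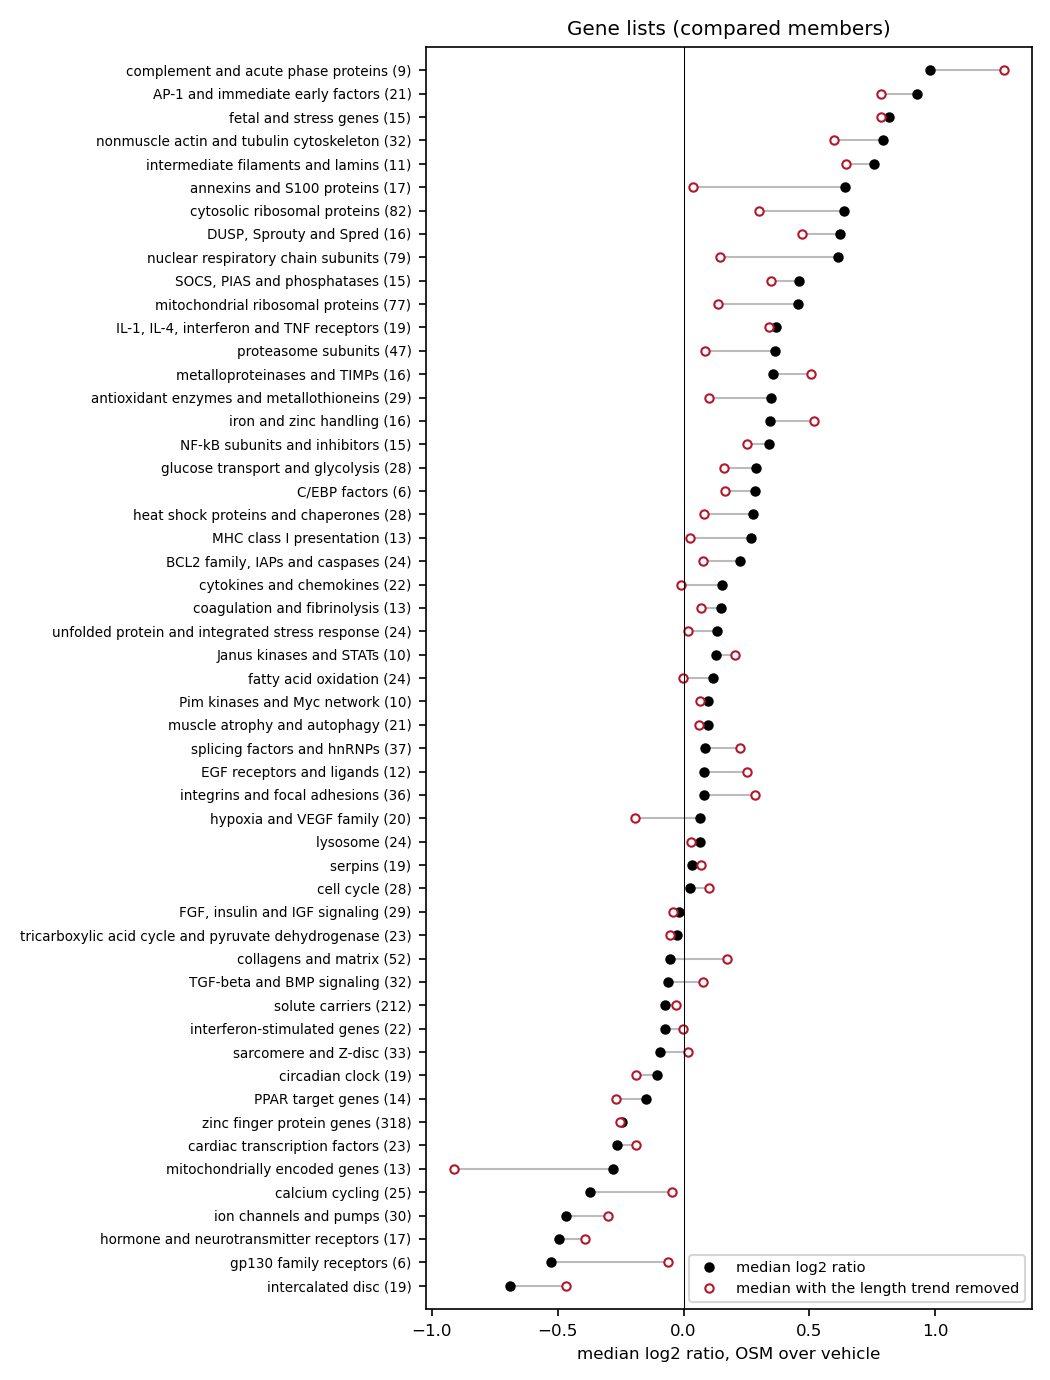
Median log2 ratio, OSM over vehicle, of the compared members of 53 gene lists (number of members in parentheses), without (black) and with (open red) the length trend removed. The median of all compared genes was 0.00 before and -0.05 after removal; the mitochondrially encoded genes move farthest down, from -0.28 to -0.91, and 6 medians change sign.

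Of 14 compared targets of the fatty acid sensor PPAR alpha, 3 were higher and 2 lower. Angptl4, an inhibitor of lipoprotein lipase, rose from 4.59 to 54.3 FPKM (log2 3.56), and the lipid droplet protein Plin2 from 38.0 to 88.5 FPKM (log2 1.22). The thioesterase Acot2 fell from 78.1 to 34.5 FPKM (log2 -1.18), as did Cpt1a, and Acot3 went from 0 to 24 counts, a rise of at least 6.77-fold. Pdk4, the kinase that limits glucose oxidation, was at 107 FPKM with vehicle and 99.6 with OSM (log2 -0.11). Fatty acid oxidation had 1 lower of 24 members and 0 higher. This was Cpt1a, the liver form of the enzyme of mitochondrial fatty acid entry, which fell from 3.39 to 1.39 FPKM (log2 -1.29) and lost its call with the trend removed (-1.05). The median of this list changed sign from 0.12 to -0.00, both close to 0.

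Glucose handling had 2 of 28 members higher and 1 lower, with a median of 0.29, and 4 were higher and 1 lower with the trend removed at 0.16. The glucose transporter Slc2a1 (GLUT1) rose from 28.0 to 77.6 FPKM (log2 1.47), while the insulin-responsive Slc2a4 (GLUT4) was at 39.6 FPKM with vehicle and 32.6 with OSM (log2 -0.28). The isoforms of the enzyme that sets fructose 2,6-bisphosphate, an activator of glycolysis, diverged, with Pfkfb3 rising from 0.716 to 2.40 FPKM (log2 1.75) and the cardiac form Pfkfb2 falling from 3.44 to 0.854 FPKM (log2 -2.01). Reads of Gapdh (log2 1.04) are uncertain because of its many near-identical copies. In the tricarboxylic acid cycle list, 0 of 23 members were called and ratios ran only from -0.41 to 0.42.

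The mitochondrial genome took 17.4% of all counts with vehicle, 13.6% with OSM and 16.1% with IL-6. Of its 13 protein-coding genes, 2 were lower and 0 higher. The complex I subunit mt-Nd5 fell from 9825 to 4153 FPKM (log2 -1.24), and mt-Nd4l from 192 to 42.8 FPKM (log2 -2.17). The most abundant transcript, mt-Co1, was at 34354 FPKM with vehicle and 29939 with OSM (log2 -0.20), and mt-Co3 stood above 0 (0.77). With the trend removed 5 were lower, but the trend, fitted over the 9444 well-counted protein-coding genes, was subtracted from these mitochondrial transcripts. The 79 compared nuclear-encoded respiratory chain subunits had a median of 0.61, with 77 above 0, and 0.15 with the trend removed, at a median length of 1587 bases. None was called (0 higher, 0 lower, and 1 higher with the trend removed), and Cox6a2, a heart and muscle subunit of complex IV and the most abundant, was at 1793 FPKM with vehicle and 2827 with OSM (log2 0.66, and 0.01 with the trend removed).

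The hypoxia and VEGF list had 1 of 20 members higher and 1 lower, and its median changed sign with the trend removed, from 0.07 to -0.19. The stress-responsive Ndrg1 rose from 1.45 to 13.7 FPKM (log2 3.23), and the vessel-stabilizing ligand Angpt1 fell from 2.37 to 0.611 FPKM (log2 -1.96). Vegfa was at 29.1 FPKM with vehicle and 24.1 with OSM (log2 -0.27) and Hif1a at 12.5 FPKM with vehicle and 24.5 with OSM (log2 0.96). Of 29 antioxidant genes 3 were higher and 0 lower (2 and 1 with the trend removed), the 3 being metallothioneins, which bind zinc and copper. Mt1 rose from 393 to 1081 FPKM (log2 1.46), Mt2 from 12.3 to 48.6 FPKM (log2 1.98) and Mt3 from 6 to 35 counts. Of these Mt2 alone kept its call with the trend removed (1.30), while Mt1 stood at 0.97 and Mt3 at 1.77. Mt3 also lost its call with total counts. Hmox1, the heme-degrading enzyme, was at 493 FPKM with vehicle and 997 with OSM (log2 1.01), just short of the call.

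In iron and zinc handling, Steap4, a metalloreductase of inflammatory responses, was the only called gene of 16. It had 18 counts with vehicle and 2849 with OSM, or 0.226 FPKM with vehicle and 30.2 with OSM (log2 7.06, 6.40 to 7.82). Ferritin heavy chain (Fth1) was at 755 FPKM with vehicle and 1338 with OSM (log2 0.82), and the zinc importer Slc39a14 had a ratio of 0.48. Solute carriers as a whole were near the background, with 12 of 212 compared members higher (5.66%) and 11 lower (5.19%), and 11 and 8 with the trend removed. The steroid sulfate carrier Slc10a6 had 1 count with vehicle and 509 with OSM, the largest ratio of all compared genes (log2 8.75, 6.27 to 14.06). Slc6a19, an amino acid transporter, went from 0 to 43 counts, at least 12.1-fold higher, and the most abundant carrier, the mitochondrial ADP/ATP exchanger Slc25a4, had a ratio of 0.55.

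Ribosomal protein genes, short as a group, lay above 0 without exception before removal of the trend, 82 of 82 cytosolic members at a median of 0.64, and 76 of 82 after it at 0.30. They took 2.15% of counts with vehicle and 3.18% with OSM. Rps27 rose from 45.3 to 135 FPKM (log2 1.57) and Rps10 from 13 to 72 counts, the only 2 called. Rps27 lost its call with the trend removed (1.03). Reads of such genes can be shared with near-identical copies. Mitochondrial ribosomal proteins had 0 of 77 called (1 higher with the trend removed) at a median of 0.46 (0.14 with the trend removed), and proteasome subunits 0 of 47 at 0.36 (0.09).

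Of 28 chaperones, 2 small heat shock proteins were higher and 0 lower. Hspb1 (HSP27), which protects actin filaments, rose from 349 to 1563 FPKM (log2 2.16), and Cryab (alpha-B crystallin), a chaperone of desmin, from 1502 to 3374 FPKM (log2 1.17), with 0.72 and no call after removal of the trend. Cryab gained the most FPKM of any protein-coding gene. The large chaperones Hspa8 and Hsp90aa1 had ratios of 0.26 and 0.21. In the unfolded protein response, 1 of 24 members was called, the sensor Atf6, lower at 54.8 FPKM with vehicle and 26.0 with OSM (log2 -1.08) and not called with the trend removed (-0.73). The main endoplasmic reticulum chaperone Hspa5 was at 1278 FPKM with vehicle and 1377 with OSM (log2 0.11).

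Among genes of muscle atrophy and autophagy, 2 of 21 were lower and 0 higher. The ubiquitin ligase Fbxo32 (atrogin-1) fell from 29.8 to 9.97 FPKM (log2 -1.58), and the transcription factor Foxo3, which activates it, from 12.2 to 5.39 FPKM (log2 -1.19), the latter not called with the trend removed (-0.95). The companion ligase Trim63 (MuRF1) was at 49.2 FPKM with vehicle and 62.1 with OSM (log2 0.33). Of 24 lysosomal genes 3 were higher and 0 lower, Litaf and the membrane proteins Cd63 (from 43.2 to 151 FPKM, log2 1.81) and Cd68 (382 to 1419 counts, log2 1.65). Cd68 lost its call with the trend removed (1.16). Cathepsin D (Ctsd) had a ratio of 0.48.

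In the survival list, 3 of 24 members were higher and 0 lower. The antiapoptotic Bcl2l1 (BCL-XL) rose from 5.84 to 15.8 FPKM (log2 1.43), and so did the proapoptotic Bmf (from 0.293 to 0.892 FPKM, log2 1.60) and caspase 8 (Casp8, 8 to 73 counts). Mcl1, the most abundant, was at 69.3 FPKM with vehicle and 97.5 with OSM (log2 0.49), and Bcl2 had a ratio of -1.10. Cell cycle genes gave 1 higher and 1 lower of 28, at a median of 0.02 that turned negative with scaling by total counts. The inhibitor Cdkn1c rose from 6 to 48 counts and the topoisomerase Top2a fell from 20 to 3, the latter a ratio of -2.98 (-5.37 to -1.23) that lost its call with the trend removed (-2.64, -5.04 to -0.89). The proliferation marker Mki67 had 6 counts in each library.

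Clock genes were lower in 3 of 19 cases and higher in 1. The repressor Bhlhe40 rose from 19.9 to 56.9 FPKM (log2 1.52), the repressor Nr1d2 fell from 30.7 to 13.9 FPKM (log2 -1.15), and Rora and Clock were lower (log2 -1.71 and -1.18) without keeping their calls when the trend was removed (-1.11 and -0.54). Of 37 splicing factors and hnRNPs, 2 were lower and 0 higher, Mbnl1 (from 9.91 to 3.95 FPKM, log2 -1.33) and Rbm20, the splicing regulator of titin (from 25.3 to 11.9 FPKM, log2 -1.08), and neither call stood with the trend removed (-0.47 and -0.91). Zinc finger protein genes had a median of -0.25 over 318 members, and -0.25 with the trend removed, with 11 lower (3.46%) and 3 higher (0.94%). There were 9 lower and 3 higher with the trend removed. Among the called members only, with 0 counts taken at the floor, the largest ratios were those of Zfp457 (25 to 0 counts), Zfp108 (54 to 8), Zfp82 (17 to 0) and Zfp40 (63 to 15), all lower, and Zfp366, which was higher (0 to 18). An uncalled member had a larger positive ratio (log2 3.08) than Zfp366.

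By absolute change, the 10 largest gains in FPKM were Cryab, Myl3, Myl2, Hspb1, Rcan1, Mb, Cox6a2, Ankrd1, Fabp3 and Tnni3. Rcan1, an inhibitor of calcineurin, rose from 207 to 1357 FPKM (log2 2.71), the largest ratio of the 10. Myoglobin (Mb), the oxygen store of muscle, was at 3385 FPKM with vehicle and 4484 with OSM (log2 0.40), and the fatty acid carrier Fabp3 at 1544 FPKM with vehicle and 2394 with OSM (log2 0.63). With the trend removed, the ratios of Mb, Cox6a2 and Fabp3 were -0.04, 0.01 and 0.03. Of the 10 largest losses, 9 were mitochondrially encoded and the tenth was Atp2a2.

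The 10 protein-coding genes with at least 1 FPKM in both libraries whose interval lay farthest below 2-fold after removal of the trend were mt-Nd4l, Uprt, Nt5c1a, Chrm2, Pdpr, Gm19410, Esrrg, Asb15, Hipk2 and Sox4. Nt5c1a, a nucleotidase that forms adenosine from AMP in heart and skeletal muscle, fell from 8.26 to 2.06 FPKM (log2 -2.01, and -2.50 with the trend removed). Pdpr, a regulatory subunit of pyruvate dehydrogenase phosphatase, fell from 21.2 to 4.53 FPKM (log2 -2.23), and the muscle ankyrin repeat protein Asb15 from 8.30 to 1.85 FPKM (log2 -2.17). The uracil phosphoribosyltransferase homolog Uprt fell from 7.26 to 1.32 FPKM (log2 -2.46), and Gm19410, a predicted gene, from 13.9 to 2.86 FPKM (log2 -2.28). The kinase Hipk2 fell from 19.6 to 4.15 FPKM (log2 -2.25) and the developmental transcription factor Sox4 from 9.73 to 2.42 FPKM (log2 -2.01). With IL-6 these stood at 9.65 FPKM for Nt5c1a, 22.1 for Pdpr, 8.02 for Asb15, 21.1 for Hipk2 and 11.3 for Sox4.

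The identity of the cells was checked with marker lists of 10 cell types. The 10 cardiomyocyte markers summed to 10694 FPKM with vehicle and 12808 with OSM, led by Actc1, with 2 lower before (Ttn and Ryr2) and 0 called after removal of the trend. The 11 endothelial markers summed to 9.91 and 11.8 FPKM with 0 called, led by Cdh5 at 2.63 and 2.64 FPKM. The 9 fibroblast markers summed to 1.01 and 1.31 FPKM, led by Dcn, with 0 called. The 11 macrophage markers summed to 1.97 and 2.48 FPKM, led by Csf1r at 1.28 and 1.21 FPKM, and C1qa, C1qb, C1qc and Ptprc had 0 counts in both libraries. The 8 lymphocyte markers summed to 0 and 0.0972 FPKM, with 6 at 0 counts in both libraries.

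The 8 smooth muscle and pericyte markers summed to 21.4 FPKM with vehicle and 9.86 with OSM. Almost all of this was Abcc9 (19.9 and 8.01 FPKM), which cardiomyocytes express as well, and Myh11 and Pdgfrb were at 0.135 and 0.115 FPKM with vehicle. Abcc9 was the 1 lower call of this list, and it was lost with the trend removed (-1.02), where the pericyte proteoglycan Cspg4 was called higher (1.14 before and 1.68 after). Schwann cell markers summed to 0.244 and 0.0831 FPKM and epicardial markers to 0.489 and 0.345, the latter with Krt19 lower. Erythroid markers summed to 0.351 and 1.25 FPKM and adipocyte markers to 0 and 0.0144, with 0 called. What part other cell types have in the ratios was not tested.

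**Figure D5:**
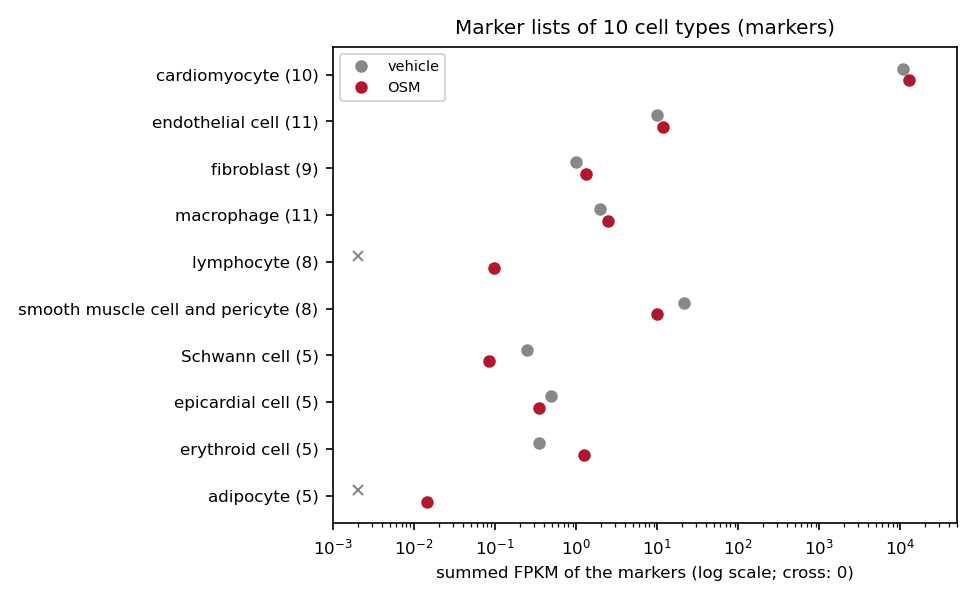
Summed FPKM (log scale) of the markers of 10 cell types with vehicle (grey) and OSM (red), with a cross where the sum is 0 and the number of markers in parentheses. Cardiomyocyte markers lie at 10694 and 12808 FPKM and no other list exceeds 21.4 FPKM.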

How the data were processed

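According to the labels, the authors aligned paired 150-base reads to GRCm39 with HISAT2 2.2.1 and counted them per gene with featureCounts. The deposited tables give counts and FPKM, fragments scaled to gene length in kilobases and to library size, for 1 pooled library per condition. At these depths 3 counts correspond to 0.120 CPM with vehicle and 0.0975 with OSM.

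Scaling factors were computed with edgeR 4.0.16 (TMM) over the whole deposited table. This choice, in place of factors from the compared genes alone, was made after the numbers of called genes under both had been seen, to keep to the earlier processing of these data. Genes with at least 10 counts over both libraries were called from 95% Clopper-Pearson intervals (scipy 1.17.1), and folds against 0 counts used a floor of 3 counts per library. The length trend was a lowess fit (statsmodels 0.14.6, fraction 0.3) over protein-coding genes with a mean of at least 100 counts. The calling was tested on simulated data. The simulation held counting error only, so it cannot speak to variation between cell preparations.

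Members and the 53 gene lists were chosen with earlier results of these data known. Named genes were up to 5 called members and the most abundant member with vehicle of each list, the 10 largest gains and losses in FPKM, the 10 genes per direction farthest beyond 2-fold with the trend removed, genes the study names, and members that define a list's role. Alternatives were DESeq2 1.42.0, upper-quartile and total-count scaling, other count filters, thresholds, trends and assumed dispersions. TMM over the compared genes and 2 of the 3 motifs were added after seeing the data.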

Additional observations from a re-analysis of the deposited data

How the results depend on the processing

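With 1 library per condition, leaving out a replicate was not possible and the intervals hold no variation between cell preparations. Under DESeq2, upper-quartile and total-count scaling the counts of called genes stayed within 1.5 times those reported, as they did with TMM factors from the compared genes (575 higher and 849 lower), an alternative added after seeing the data. With the trend removed the counts could not change with the scaling, since the fit takes up any constant shift. With at least 50 counts, 382 genes were higher and 502 lower, and 319 lower with the trend removed. By the point estimate alone 1565 were higher and 2034 lower, and 1310 and 2044 with the trend removed. Beyond 4-fold there were 127 and 129, and 112 and 186 with the trend removed. Protein-coding genes alone gave 384 lower with the trend removed. Without the 6807 genes overlapping a gene on the opposite strand, 369 were higher and 436 lower, and 298 and 448 with the trend removed. An edgeR exact test, a different rule of calling, gave 633 and 862 at an assumed coefficient of biological variation of 0.2, and 43 and 11 at 0.4. By the ratio of FPKM there were 1573 and 2031. The ratio of Ttn reversed to 0.37 with the trend removed. The causes were not tested. The 223 genes named by rank, call, abundance or mention in the study were tallied with the trend removed. Of these, 182 stayed on the same side of the call, some uncalled ones with a change of sign (Actc1, Mb, B2m, Mif and Nkx2-5 among them). A further 37 lost the call and 3 (mt-Nd2, mt-Nd6 and mt-Atp6) gained one. Other members named in the text are outside this tally, and some gained a call (Cntfr and Spred1 among them) or lost it (Ier5 and Insr among them). The medians of 6 lists changed sign with the trend removed, 4 with at least 50 counts and 2 with total counts.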

Other observations

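The genes given here lie outside the naming rule and were chosen after their values were seen. Star, a mitochondrial cholesterol transporter, rose from 21.5 to 164 FPKM (log2 2.93). The hyaluronan receptor Cd44 rose from 3.69 to 19.6 FPKM (log2 2.41), the secreted chaperone Clu from 212 to 750 FPKM (log2 1.82) and Rrad, a GTPase that inhibits calcium channels, from 152 to 774 FPKM (log2 2.35). Ppp1r3a, a glycogen-targeting phosphatase subunit, fell from 19.6 to 4.79 FPKM (log2 -2.03). The nuclear lncRNA Neat1 was at 5.30 FPKM with vehicle and 7.13 with OSM (log2 0.43, and 1.37 with the trend removed, where it was called), and Malat1 at 38.0 FPKM with vehicle and 21.0 with OSM (log2 -0.86). The subtracted trend was fitted over protein-coding genes only. Xist, the RNA of the inactive X chromosome, gave 753 vehicle and 279 OSM counts, and the Y-linked Ddx3y 1758 and 1450. Both pools thus held counts of transcripts of both sexes. Scaled to library size, Xist was at 30.2 CPM with vehicle, 27.5 with IL-6 and 9.07 with OSM. The Y-linked Ddx3y was at 70.5 CPM with vehicle and 47.1 with OSM, and Kdm5d at 12.1 and 7.18. Uty, also Y-linked, was at 18.8 CPM with vehicle and 10.0 with OSM, but Eif2s3y at 40.7 and 44.4. Whether the pools matched in the share of each sex was not tested.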
